A study of Mus musculus with 6 samples.

Results

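The genes of heme synthesis and breakdown were followed in pressure-loaded mouse hearts, as 9 of the 19938 genes that had an array row of their own: Alas1, Alas2, Alad, Uros, Urod, Cpox, Ppox, Fech and Hmox1. They were chosen by their place in the pathway and, for the contrast between Alas2 and Alas1, with the differences between the genotypes in these same arrays already known. Their differences are therefore given as descriptions, with errors and no p-value. Each of the 9 genes had exactly 1 row. Of the 2 groups, 3 hearts came from wild-type male FVB mice and 3 from their A2a-R TG littermates, labelled as over-expressing the adenosine A2a receptor, a receptor that raises cyclic AMP; the transgene's own RNA was not analysed here, so the genotype labels were not checked on these values. All 6 mice had transverse aortic constriction, a narrowing of the aorta that loads the left ventricle, at 8 weeks of age, and the hearts were taken 14 weeks after surgery. The transgene is described as cardiac-specific and inducible; its promoter, the inducing agent and the time of induction are not given, and unoperated hearts were not analysed here. Each heart was hybridised to 1 Affymetrix Mouse Gene 1.0 ST array, and all levels below are log2 values, so that a difference of 1 is a doubling; the number of arrays limits the precision.

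Heme is an iron-holding ring that carries oxygen in hemoglobin and myoglobin and electrons in the cytochromes. Its synthesis starts in the mitochondrion with 5-aminolevulinate synthase, which is made from separate genes: Alas1 serves every cell and is held down by heme itself, while Alas2, on the X chromosome, serves red cell precursors and is governed by GATA factors and by iron. The chain then runs through enzymes that include Alad, Uros, Urod, Cpox and Ppox to Fech, which inserts the iron, and Hmox1 opens the ring again to give biliverdin, carbon monoxide and iron.

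The promoters of the genes were read for short motifs linked to these modes of control. RefSeq windows of the GRCm38.p6 assembly, covering 250 bases before and 50 bases after each annotated start, were found for 7 of the 9 genes. Both strands were searched for GATAA, the core read by GATA factors, and for GCATGCGC, part of the site read by NRF1, a factor of respiratory and housekeeping genes; the motifs do not overlap one another. GATAA occurred in 25.4% of the 32851 windows of this length and GCATGCGC in 2.71%. The Alas2 window held 1 GATAA, at position -86 counted from the start, and no GCATGCGC. In Alas1 no GATAA was found, while GCATGCGC was found on both strands at a single place, positions 30 and 32 after the first annotated start. Cpox held 2 GATAA, at positions -86 and 5, and the window of the second annotated start of Uros held 1 at position -68. In the 250 bases before the start, CG dinucleotides numbered 4 for Alas2 against 16 for the first start of Alas1 and 11 for Cpox. The median window had 6. The count depends on the start chosen: the second annotated start of Alas1 had 42, and the first and second of Uros had 21 and 5. The stretches are shown 5′ to 3′ on the gene's strand because their matches differ between the erythroid and the housekeeping synthase. Cpox and Uros are shown because they are the later steps with a window that held GATAA, which 25.4% of all windows did. The windows of Alad, Urod and Ppox held none, nor did that of the first annotated start of Uros. Capitals mark the motif, and TTATC is GATAA read on the other strand. A match is a description of letters, and binding was not measured.
Alas2, before the start, chrX:150547167-150547416, plus strand: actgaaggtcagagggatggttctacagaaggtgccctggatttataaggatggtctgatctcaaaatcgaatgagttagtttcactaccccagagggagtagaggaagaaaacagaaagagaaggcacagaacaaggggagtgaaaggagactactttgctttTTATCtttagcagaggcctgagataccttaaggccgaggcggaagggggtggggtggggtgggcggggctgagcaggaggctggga
Alas1, before the start, chr9:106247955-106248204, minus strand: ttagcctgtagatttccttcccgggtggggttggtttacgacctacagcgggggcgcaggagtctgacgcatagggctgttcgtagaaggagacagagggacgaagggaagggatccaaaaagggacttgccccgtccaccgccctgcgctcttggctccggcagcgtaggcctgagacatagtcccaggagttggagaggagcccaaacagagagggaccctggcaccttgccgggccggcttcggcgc
Alas1, after the start, chr9:106247911-106247930, minus strand: ccaagGCGCATGCGCggcgg
Cpox, before the start, chr16:58669958-58670207, plus strand: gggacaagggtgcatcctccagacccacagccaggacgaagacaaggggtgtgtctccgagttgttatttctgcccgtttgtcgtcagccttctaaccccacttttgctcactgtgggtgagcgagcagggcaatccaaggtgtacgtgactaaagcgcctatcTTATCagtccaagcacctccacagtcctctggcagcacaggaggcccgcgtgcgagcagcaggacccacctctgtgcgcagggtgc
Cpox, across the start, chr16:58670207-58670221, plus strand: cagtcTTATCtgctc
Uros, before its second annotated start, chr7:133702501-133702750, minus strand: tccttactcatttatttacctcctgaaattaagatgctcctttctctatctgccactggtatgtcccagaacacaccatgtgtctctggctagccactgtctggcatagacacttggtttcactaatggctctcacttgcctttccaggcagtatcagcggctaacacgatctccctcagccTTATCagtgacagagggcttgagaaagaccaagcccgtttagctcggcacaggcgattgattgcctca

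Of the 9 genes, Alas2 stood lower in the transgenic hearts, Hmox1 stood higher, Fech stood slightly lower, and Alad, Uros, Urod, Cpox and Ppox lay within 0.1 of equality. The values of the genotypes did not overlap for 4 genes, 1 of them higher (Hmox1) and 3 lower (Alas2, Fech and Ppox), and overlapped for the other 5. Over all 21789 rows with a single gene symbol, 20.3% had non-overlapping groups, 7.73% higher and 12.6% lower in the transgenic hearts. In limma's fit of all these rows with Benjamini-Hochberg adjustment, 0.959% of rows passed an adjusted p of 0.05, 0.519% higher and 0.441% lower. The count among the 9 genes was 1, Alas2, on the lower side, with 8 that did not pass; since the choice of genes used this contrast, nothing is read from these counts. The median difference of the 9 genes was -0.04 and that of all genes was -0.01.

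**Figure D1:**
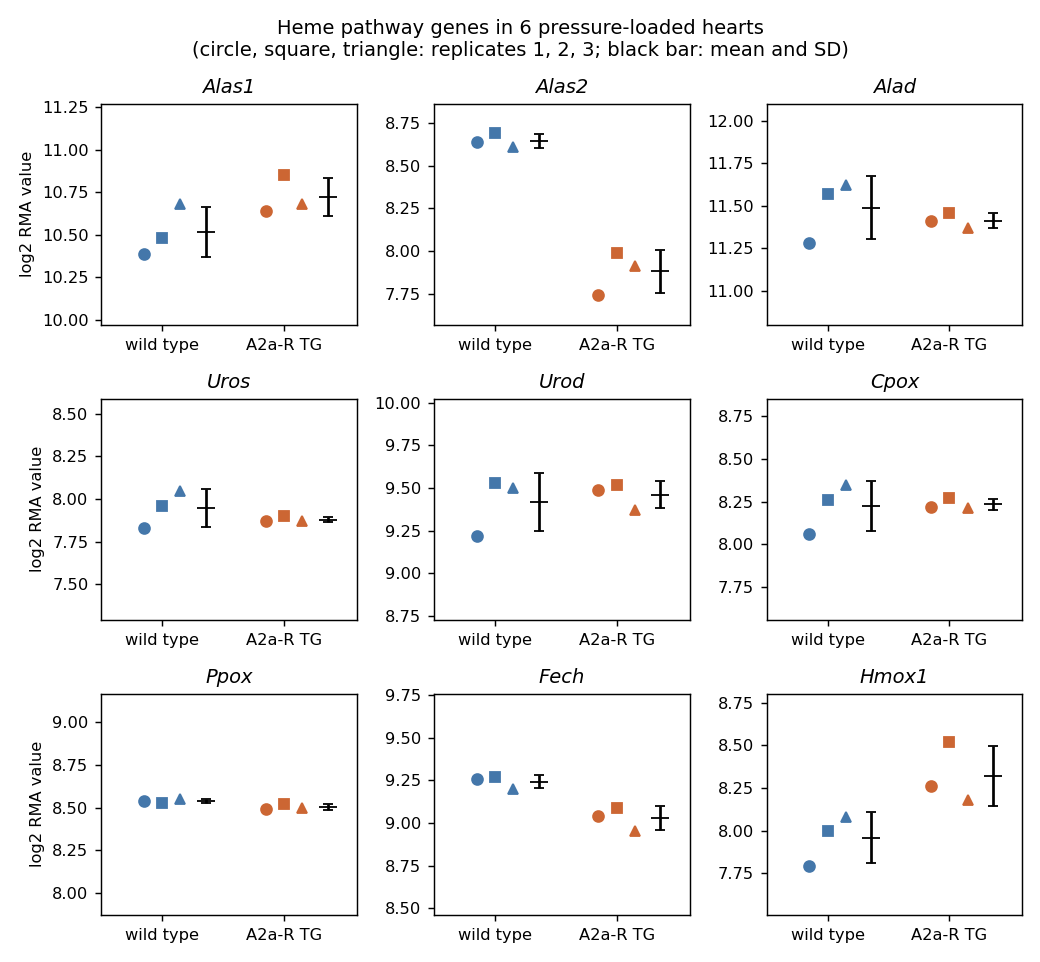
The log2 array value of each heart is plotted for each of the 9 genes, in wild-type (blue) and A2a-R TG (orange) hearts, with circles, squares and triangles for replicates 1, 2 and 3 and the black bars giving mean and SD over 3 hearts; every panel spans the same height. Alas2 shows the widest separation, with all transgenic hearts at or below 7.99 and all wild-type hearts at or above 8.61.

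Alas2, the erythroid synthase (array row 10602372), read 8.64, 8.69 and 8.61 in wild-type replicates 1 to 3 and 7.74, 7.99 and 7.91 in transgenic replicates 1 to 3. All transgenic hearts were low, replicate 1 lowest, and the groups were separated by a gap of 0.62. The means were 8.65 ± 0.04 and 7.88 ± 0.13 (SD, n = 3 each), a difference of -0.77 with a standard error of 0.07 and a 95% interval from -0.94 to -0.59, or 1.70-fold lower. Leaving out any 1 heart gave differences between -0.82 and -0.70. In whole tissue, fewer cells of a type and less RNA per cell cannot be told apart.

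Alas1, the housekeeping synthase (array row 10596454), read 10.39, 10.48 and 10.68 in the wild-type and 10.64, 10.85 and 10.68 in the transgenic hearts. Here the groups overlapped: wild-type replicate 3 reached the level of transgenic replicate 3. The means were 10.52 ± 0.15 and 10.72 ± 0.11 (SD, n = 3 each), and the difference of 0.21 ± 0.09 (SE) had an interval that touched 0, with an upper end of 0.42. Its sign was thus opposite to that of Alas2 and its size within the spread of hearts.

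Set against each other within each heart, Alas2 minus Alas1 was -1.75, -1.79 and -2.07 in the wild-type and -2.90, -2.86 and -2.77 in the transgenic hearts. Every transgenic heart lay below every wild-type heart, by a gap of 0.70. The group means were -1.87 ± 0.17 and -2.84 ± 0.07 (SD, n = 3 each), so that the balance of the synthases was shifted by -0.97, or 1.96-fold, away from Alas2. Only the shift between hearts has a meaning here, since rows of different probes do not share a scale and the sign within a heart does not rank the genes. A scale error that moves a whole array cancels in this measure, and leaving out any 1 heart gave -1.07 to -0.91.

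The cytosolic steps after the synthase showed no comparable separation. Alad, which joins pairs of aminolevulinate molecules into a pyrrole (array row 10513608), read 11.28, 11.57 and 11.62 in the wild-type and 11.41, 11.46 and 11.37 in the transgenic hearts. All its transgenic values fell inside the wild-type range, and the difference was -0.08 ± 0.09 (SE; 95% interval -0.29 to 0.14). It was -0.18 without wild-type replicate 1 and -0.01 without wild-type replicate 3.

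Uros, which closes the ring (array row 10568638), read 7.83, 7.96 and 8.05 against 7.87, 7.90 and 7.87, a difference of -0.07 ± 0.07 (SE; interval -0.22 to 0.09), with -0.13 without wild-type replicate 1 and -0.02 without replicate 3. Urod, which trims the side chains (array row 10515385), read 9.22, 9.53 and 9.50 against 9.49, 9.52 and 9.37, a difference of 0.04 ± 0.09 (SE; interval -0.17 to 0.26). The sign of Urod rested on single hearts, since leaving out wild-type replicate 1 turned it to -0.06 and other omissions gave up to 0.10. For both genes the transgenic hearts lay within the wild-type range, and wild-type replicate 1 was the lowest of all 6 hearts.

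The last steps return to the mitochondrion. Cpox, the oxidase that acts first there (array row 10436392), read 8.06, 8.26 and 8.35 in the wild-type and 8.22, 8.27 and 8.21 in the transgenic hearts, a difference of 0.01 ± 0.08 (SE; interval -0.17 to 0.19) that ran from -0.07 without wild-type replicate 1 to 0.07 without wild-type replicate 3. Ppox, which makes the protoporphyrin ring (array row 10360090), read 8.54, 8.53 and 8.55 against 8.49, 8.52 and 8.50. Its groups were apart by only 0.01, the last digit of the deposited values, and its difference of -0.04 ± 0.05 (SE; interval -0.16 to 0.08) turned to 0.01 after a further quantile normalization. The intervals of Alad, Uros, Urod, Cpox and Ppox all leave room for small differences in either direction, and none of the 5 reached as far from 0 as the Alas2 difference.

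Fech, the ferrochelatase that places iron in the ring (array row 10459391), read 9.26, 9.27 and 9.20 in the wild-type and 9.04, 9.09 and 8.95 in the transgenic hearts. The transgenic hearts were all lower, replicate 3 lowest, and the gap between the groups was 0.11. The means were 9.24 ± 0.04 and 9.03 ± 0.07 (SD, n = 3 each) and the difference was -0.22 ± 0.06 (SE; 95% interval -0.36 to -0.08), or 1.16-fold lower. Alas2 and Fech thus stood lower, by unequal amounts, while Alad, Uros, Urod and Cpox overlapped between the genotypes and Ppox was apart by 0.01. A link between the Alas2 and Fech differences was not tested.

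Hmox1, the inducible heme oxygenase (array row 10572897), read 7.79, 8.00 and 8.08 in the wild-type and 8.26, 8.52 and 8.18 in the transgenic hearts. All transgenic hearts were higher, but the gap of 0.10 was narrower than the spread within either group. The means were 7.96 ± 0.15 and 8.32 ± 0.18 (SD, n = 3 each), a difference of 0.36 ± 0.11 (SE; 95% interval 0.12 to 0.61), or 1.29-fold higher. Leaving out transgenic replicate 2, the highest heart, gave 0.26, and the other single omissions gave values up to 0.43.

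Macrophages take up spent red cells and use Hmox1 to break down their heme, and their markers were read in the same hearts. Of the 19 macrophage markers measured, of 20 listed, 17 were higher and 2 lower, with a median difference of 0.24. The groups did not overlap for 12 of the 19, all higher, where 7.73% of all rows were higher without overlap. Their summed level was 12.82 to 12.97 in the wild-type and 13.21 to 13.33 in the transgenic hearts on the log2 scale. Cd68, a lysosomal protein of macrophages, differed by 0.62 ± 0.12, Adgre1 by 0.25 ± 0.09 and the growth factor receptor Csf1r by 0.14 ± 0.07 (SE), none of which passed. Cd163, the receptor that takes up hemoglobin bound to haptoglobin, differed by 0.00 ± 0.07. Lgals3, a lectin of activated macrophages, was the single marker that passed, with 0.61 ± 0.06 (SE; limma adjusted p = 0.00423), where 0.993% of all genes passed. The part of macrophages in the Hmox1 difference was not tested.

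**Figure D2:**
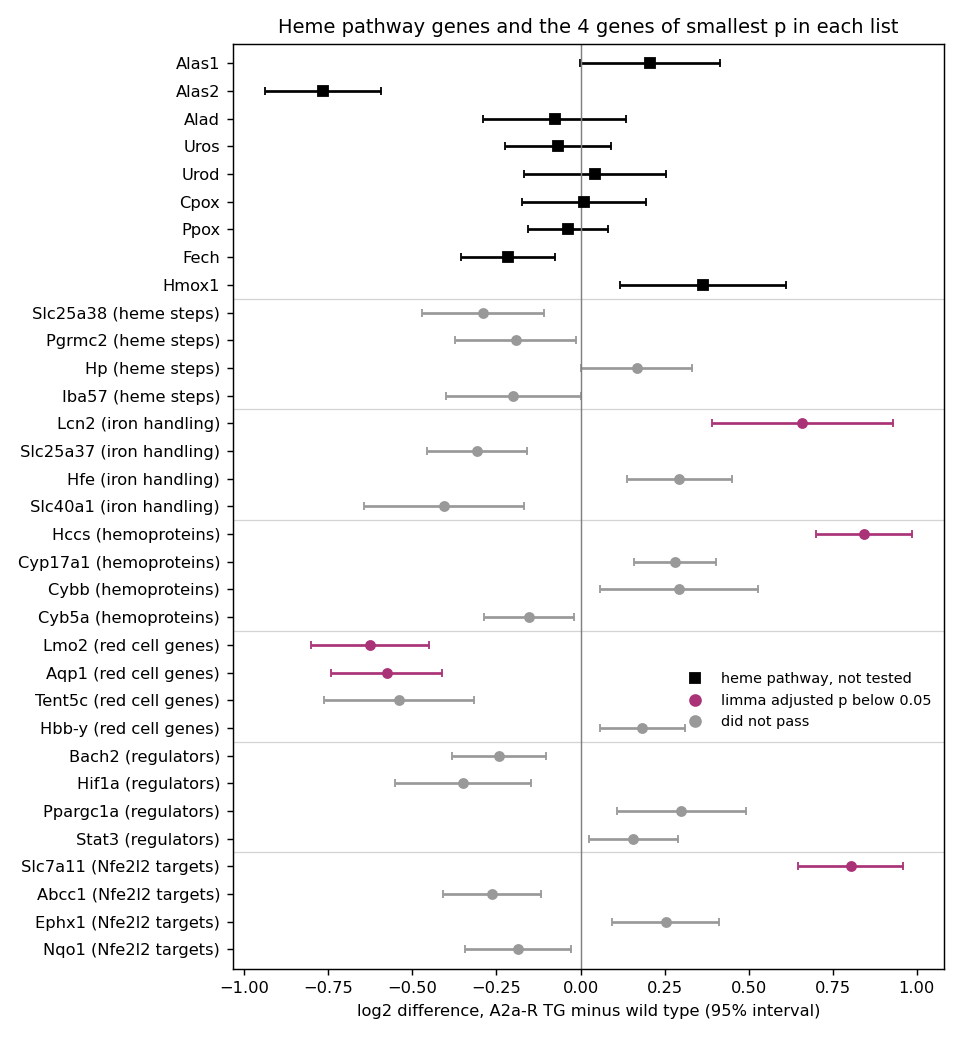
Log2 differences, transgenic minus wild type, are shown with their 95% intervals for the 9 heme pathway genes (black squares, described without a test) and for the 4 genes of smallest p in each of 6 companion lists (purple where the limma adjusted p was below 0.05, grey otherwise). Alas2 lies at -0.77 and Hmox1 at 0.36, while Hccs at 0.84 and Slc7a11 at 0.80 are the highest of the companions shown.

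Beyond their group means, the genes varied from heart to heart in different ways. Transgenic replicate 2 was the highest transgenic heart for 9 of the 9 genes, and wild-type replicate 1 the lowest wild-type heart for 6 of 9. The share of all rows with the same order was not counted, so neither count is read as a trait of these genes. In that wild-type heart, Alad deviated from its group mean by -0.21, Urod by -0.20, Hmox1 by -0.17, Cpox by -0.16, Alas1 by -0.13 and Uros by -0.12, while Alas2 deviated by -0.01 and Fech by 0.02. It lay at its group mean for Ppox. Wild-type replicate 1 was thus the wild-type heart furthest from the group mean for Alad, Uros, Urod, Cpox and Hmox1, but not for Alas2, Ppox or Fech. For Alas1 wild-type replicate 3 deviated more, by 0.16. Across the 6 deviations, Pearson's r was 0.98 between Alad and Cpox, 0.99 between Uros and Cpox and 0.95 between Alad and Urod. For Alas2 it was 0.09 with Alad, 0.03 with Uros, 0.06 with Urod and 0.08 with Cpox, but 0.57 with Ppox, 0.40 with Hmox1 and 0.25 with Fech. The synthases correlated at 0.35 with each other, while Alas1 and Hmox1 correlated at 0.88 and Alas1 and Fech at 0.00. All 6 points share their array and its normalization, only 4 of the 6 are free once the group means are removed, and these coefficients are descriptions.

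**Figure D3:**
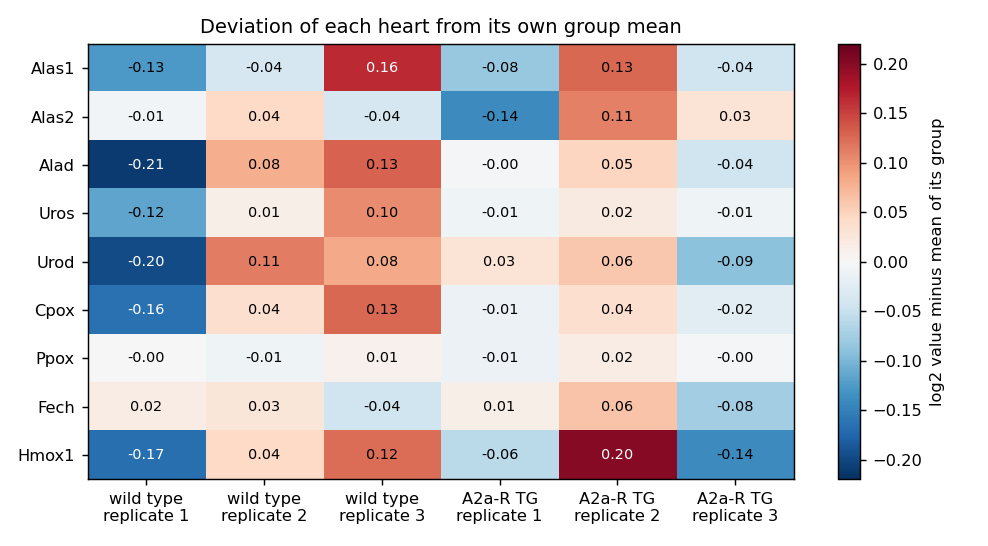
Each cell gives the log2 value of a heart minus the mean of its own group, with genes in rows and the 6 hearts in columns. Wild-type replicate 1 is low for Alad (-0.21), Urod (-0.20) and Cpox (-0.16) but close to its group mean for Alas2 (-0.01), and transgenic replicate 2 is above its group mean in every row.

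The same measure was used to find the genes most like each of 3 of the members, among the 9968 genes whose spread over the 6 arrays was at least that of the median gene. For Alas2 these were Map11 (r = 0.996), Olfr593 (0.992), Olfr421-ps1 (0.990), Olfr571 (0.990) and Psd3 (0.986), and 35 genes exceeded 0.95. For Alas1 they were Olfr1474 (0.999), Ifrd1 (0.999), Olfr132 (0.998), Atp10d (0.998) and Acsf3 (0.996), with 111 genes above 0.95. For Hmox1 they were Olfr1112 (0.998), Tlcd4 (0.998), Olfr1243 (0.996), Efcab2 (0.995) and E2f5 (0.995), with 102 above 0.95. Olfactory receptor genes, whose rows were dim, appear in all 3 sets, and with 6 hearts such values are a description of likeness only.

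The place of Alas2 among red cell RNAs was examined next. Adult globin RNA was read by 4 rows that each name several globin genes and so were not among the tested rows; they are described here and were chosen after their values had been seen. The first alpha-globin row read 13.26, 13.29 and 13.16 in the wild-type and 12.55, 12.86 and 12.88 in the transgenic hearts, a difference of -0.47 ± 0.10 (SE). The first beta-globin row read 13.05, 13.20 and 13.01 against 12.34, 12.63 and 12.40, a difference of -0.63 ± 0.09 (SE). The second rows of each kind differed by -0.49 and -0.64. In all 4 rows the transgenic hearts lay below the wild-type hearts without overlap and transgenic replicate 1 was the lowest, as it was for Alas2.

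Other genes of the red cell were uneven. Of 40 erythroid genes measured, of 56 listed, 15 were higher, 22 lower and 3 equal, 2 passed, both lower, and the median difference was -0.01; Alas2 and the globin rows are not in this count. The groups did not overlap for 11 of the 40, 3 higher and 8 lower, where 7.73% of all rows were higher and 12.6% lower without overlap. The 8 lower genes were Lmo2, Aqp1, Tent5c, Ube2l6 (-0.21 ± 0.08), Ube2o (-0.17 ± 0.07), Isg20 (-0.16 ± 0.06), Mkrn1 (-0.16 ± 0.05) and Car2 (-0.14 ± 0.06), all SE. Of these, Aqp1, Tent5c and Mkrn1 were lowest in transgenic replicate 1, as Alas2 was. Lmo2, Ube2o and Car2 were lowest in transgenic replicate 2, and Ube2l6 and Isg20 in transgenic replicate 3. Other members lay near 0, and those named next were picked after their values had been seen. Slc4a1, the anion exchanger of the red cell membrane, differed by -0.02 ± 0.09, the ammonium channel Rhag by -0.06 ± 0.05, and Klf1, a transcription factor of the erythroid lineage, by 0.08 ± 0.07 (SE). Gata1 encodes a GATA factor, whose binding to the matches printed above was not measured. Its row read 5.61, 5.37 and 5.51 in the wild-type and 5.72, 5.56 and 5.28 in the transgenic hearts, and the groups overlapped. Rhag, at 4.43 to 4.54, and Gata1 are dim rows, in which a difference is compressed. Hbb-y, an embryonic globin, read between 5.09 and 5.17 in the wild-type and between 5.29 and 5.34 in the transgenic hearts, a difference of 0.18 ± 0.05 (SE; limma adjusted p = 0.186). The summed erythroid level, log2 scale, was 14.23 to 14.26 in the wild-type and 14.13 to 14.16 in the transgenic hearts. It was lower in all 3 of the latter. The sum was taken over unlogged values, so bright rows weigh most in it. The brightest were Prdx2 (difference 0.01), Bnip3l (-0.06), Aqp1 (-0.58) and Lmo2 (-0.63). It therefore does not show a fall shared by the list, whose median difference was -0.01.

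**Figure D4:**
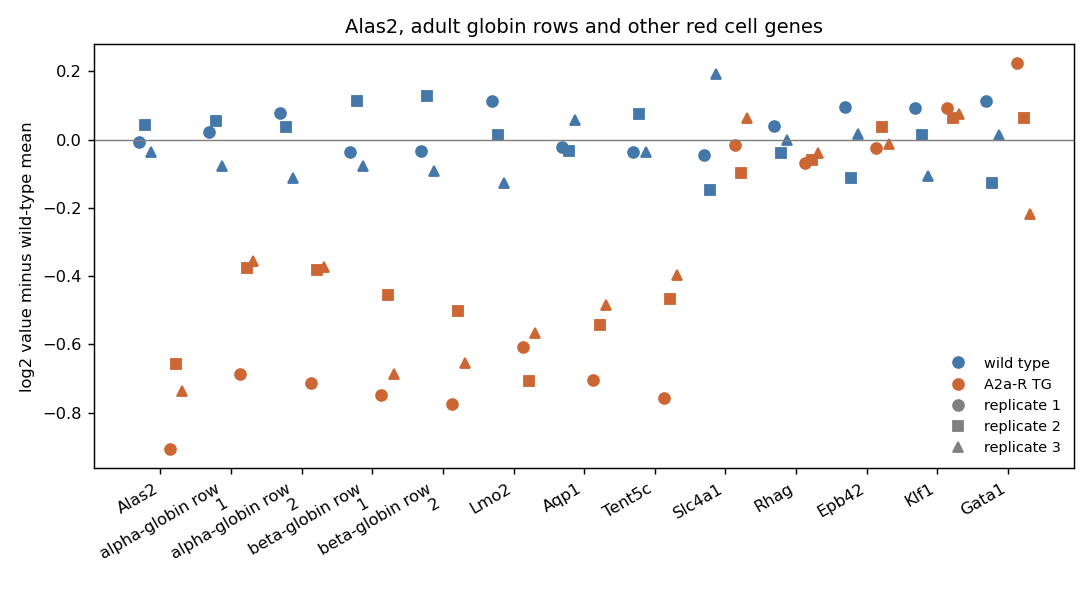
The log2 value of each heart minus the wild-type mean of the same row is plotted for Alas2, the 4 adult globin rows, the 3 erythroid genes of smallest p (Lmo2, Aqp1 and Tent5c) and 5 other red cell genes picked after their values had been seen, blue for wild-type and orange for A2a-R TG hearts, with symbols for replicates 1, 2 and 3. Transgenic hearts lie below all wild-type hearts for Alas2 (gap 0.62) for the globin rows (gaps 0.26 to 0.41) and for Lmo2, Aqp1 and Tent5c, and among the wild-type hearts for Slc4a1 and Epb42.

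The erythroid genes that passed were Lmo2 and Aqp1. Lmo2, an adaptor protein of blood and vessel formation, read 10.13, 10.03 and 9.89 in the wild-type and 9.41, 9.31 and 9.45 in the transgenic hearts and fell by 0.63 ± 0.08 (SE; limma adjusted p = 0.0101). Aqp1, the water channel of red cells and capillaries, read 10.82, 10.81 and 10.90 against 10.14, 10.30 and 10.36 and fell by 0.58 ± 0.07 (SE; limma adjusted p = 0.0106). Both genes are also expressed in blood vessels. Both lost the call without wild-type replicate 2, where the limma adjusted p was 0.0596 for Lmo2 and 0.056 for Aqp1. Aqp1 lost it also without wild-type replicate 3 (0.0565). Tent5c, which stabilises RNAs in late erythroid cells, read 7.63, 7.74 and 7.63 against 6.91, 7.20 and 7.27, a difference of -0.54 ± 0.10 (SE) that missed the threshold (limma adjusted p = 0.0502).

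Vessel and platelet markers were read in the same hearts as Alas2. Of 11 endothelial markers measured, of 12 listed, 0 passed in limma (1 had an unadjusted p under 0.05), 2 were higher and 9 lower with a median of -0.07, and their summed level was 14.05 to 14.14 in the wild-type and 14.01 to 14.11 in the transgenic hearts. The groups did not overlap for 3 of the 11, all lower, where 12.6% of all rows were lower without overlap. Pecam1 differed by 0.03, Cdh5 by -0.06, Kdr by -0.14 and Tek by -0.07. Of 10 platelet markers measured, of 15 listed, 0 passed in limma (2 had an unadjusted p under 0.05), with a median of -0.05 and summed levels of 10.50 to 10.69 and 10.21 to 10.52. Among them Pf4 differed by -0.00, Itga2b by 0.01 and Gp9, a platelet surface protein, by -0.32 ± 0.06 (SE; limma adjusted p = 0.0608). Ppbp, a chemokine stored in platelets, read 9.20, 8.87 and 8.76 in the wild-type and 7.54, 8.30 and 8.82 in the transgenic hearts, lowest in transgenic replicate 1. The blood content of the hearts was not measured, and its part in the Alas2 difference was not tested. The tissue label was checked on cardiomyocyte markers: all 12 had a row, Myh6, Actc1, Tnnt2 and Tnni3 read between 13.33 and 14.31, 0 of the 12 passed in limma (2 had an unadjusted p under 0.05), and the summed level was 17.05 to 17.09 in both groups.

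Across the 6 lists of companion genes, which hold heme transport, iron handling, hemoproteins, red cell genes, regulators and Nfe2l2 targets, 5 of 201 measured genes passed, 3 higher and 2 lower, or 2.49%, where 0.993% of all genes passed; the lists were chosen with earlier results known. The median difference was -0.01, equal to that of all genes.

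Carriers and later steps of heme handling were measured by 22 of 25 listed genes, 11 higher and 11 lower, of which 0 passed in limma and 3 had an unadjusted p under 0.05. Slc25a38, the mitochondrial carrier that brings in glycine for the synthase, read 9.54, 9.69 and 9.56 in the wild-type and 9.40, 9.17 and 9.35 in the transgenic hearts. Its groups did not overlap and its difference was -0.29 ± 0.08 (SE; limma adjusted p = 0.151). Pgrmc2, a heme chaperone, differed by -0.19 ± 0.08, Hp, the plasma haptoglobin, by 0.17 ± 0.07, and Iba57, an iron-sulfur assembly factor, by -0.20 ± 0.09 (SE). The constitutive oxygenase Hmox2 differed by 0.03 ± 0.05 and the biliverdin reductases Blvra and Blvrb, which act after Hmox1, by -0.04 ± 0.07 and 0.09 ± 0.05 (SE). None of these reached the size of the Hmox1 difference.

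Iron handling was measured by 43 of 48 listed genes, 19 higher, 23 lower and 1 equal, and 1 passed, higher. It was Lcn2, a protein that binds iron-carrying siderophores and is made by stressed and inflamed tissue, which read 7.29, 7.21 and 7.68 in the wild-type and 8.12, 8.02 and 8.02 in the transgenic hearts. It rose by 0.66 ± 0.12 (SE; limma adjusted p = 0.0474), and the call was lost without wild-type replicate 1 (0.146) or 2 (0.153) or without transgenic replicate 1 (0.129), 2 (0.109) or 3 (0.124). Slc25a37, the mitochondrial iron importer that supplies Fech in red cell precursors, read 8.20, 8.32 and 8.30 against 8.05, 7.92 and 7.93. All transgenic hearts were lower, with a difference of -0.31 ± 0.06 (SE; limma adjusted p = 0.0845). The iron exporter Slc40a1 differed by -0.41 ± 0.10 and Hfe, a sensor of iron-loaded transferrin, by 0.29 ± 0.07 (SE), and neither passed. The transferrin receptor Tfrc differed by 0.25 ± 0.15 with overlapping groups, and the ferritins Fth1 and Ftl1 by 0.03 and -0.04.

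Hemoproteins and their assembly factors were measured by 45 of 49 listed genes, 20 higher and 25 lower, and 1 passed, higher. This was Hccs, the synthase that attaches heme to cytochrome c, which read 9.98, 10.06 and 10.15 in the wild-type and 10.89, 10.92 and 10.91 in the transgenic hearts and rose by 0.84 ± 0.06 (SE; limma adjusted p = 0.00146), 1.79-fold. Its client cytochrome c, Cycs, differed by -0.02 ± 0.07, and myoglobin, Mb, the heme protein of the cardiomyocyte, by -0.09 ± 0.05 (SE). Cyp17a1, a steroid hydroxylase, differed by 0.28 ± 0.05, Cybb, the oxidase subunit of phagocytes, by 0.29 ± 0.10 and the electron carrier Cyb5a by -0.15 ± 0.06 (SE), and none of the 3 passed. The row of Cyp17a1 is dim, at 4.93 to 5.25.

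Hccs and Alas2 both lie on the X chromosome, and their measured neighbours in RefSeq gene order were looked at after these values had been seen. Of the 742 X-linked genes, 16 passed, 11 higher and 5 lower, or 2.16%, where 0.993% of all genes did. These 16 include Alas2, Hccs and their neighbours that passed, so this share is not separate from the neighbour counts given next. Among 11 neighbours of Hccs, 5 passed, all higher: Tlr8 by 1.05, Tlr7 by 1.08, Prps2 by 0.90, Msl3 by 0.74 and Arhgap6 by 0.57. Mid1, which lies on the other side of Hccs, differed by 0.55 (limma adjusted p = 0.0818), while Amelx next to it differed by -0.02 and Tmsb4x by -0.09. In all, 7 of the 11 neighbours had non-overlapping, higher values in the transgenic hearts, as Hccs did, where 7.73% of all rows had, and the cause was not tested.

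Around Alas2 the picture was different, with 1 of 16 neighbours passing: Maged2, which rose by 0.55 ± 0.08 (SE; limma adjusted p = 0.0236). Apex2, a DNA repair nuclease whose gene model overlaps Alas2, read 7.88, 8.04 and 8.18 in the wild-type and 8.24, 8.37 and 8.29 in the transgenic hearts, a difference of 0.27 ± 0.08 (SE; limma adjusted p = 0.205) in the direction opposite to Alas2. Tro, on the other side, differed by 0.02 ± 0.08 (SE). None of the 16 neighbours lay as low as Alas2, and the next lowest was Amot at -0.37.

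**Figure D5:**
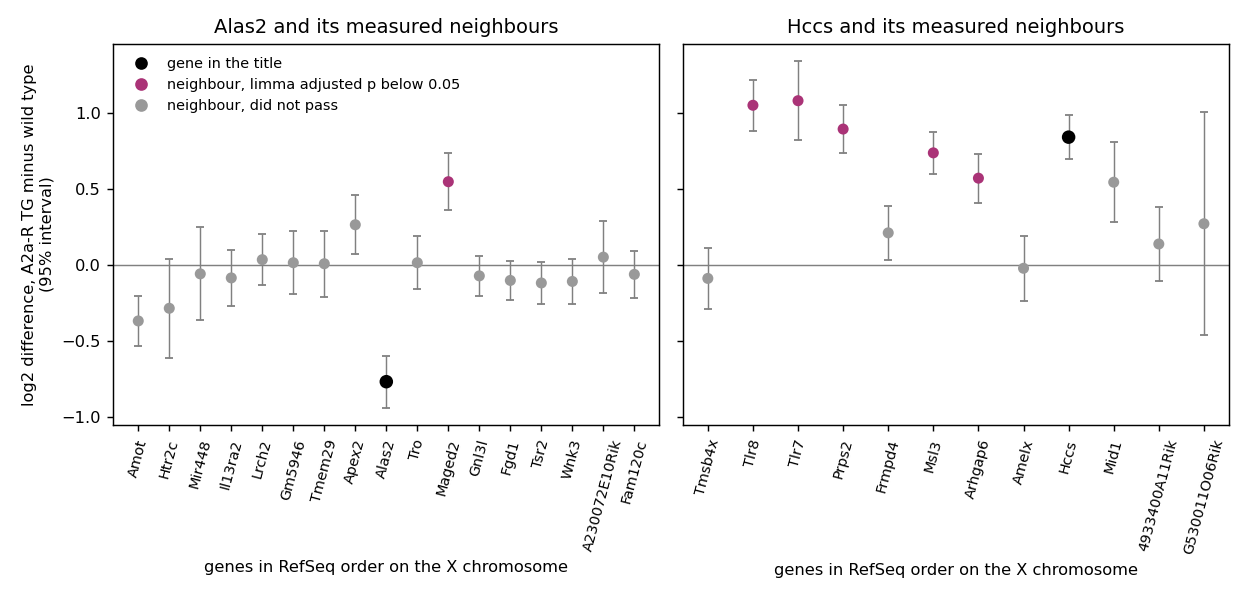
Log2 differences, transgenic minus wild type, with 95% intervals, are shown for Alas2 with 16 measured neighbours (left) and for Hccs with 11 (right), in RefSeq gene order on the X chromosome. Alas2 (black, -0.77) stands alone below its neighbours, whereas Hccs (black, 0.84) stands among 5 neighbours that passed (purple) between 0.57 and 1.08.

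Regulators of the pathway were measured by 27 of 28 listed genes, 11 higher, 15 lower and 1 equal, of which 0 passed in limma and 4 had an unadjusted p under 0.05. Bach1, the heme-sensing repressor of Hmox1, differed by 0.00 ± 0.06, and Nfe2l2, its activator, by 0.02 ± 0.06 (SE). Bach2, a relative of Bach1 in lymphocytes, differed by -0.24 ± 0.06 and the oxygen-regulated factor Hif1a by -0.35 ± 0.09 (SE; limma adjusted p = 0.127 and 0.129). Ppargc1a, the coactivator that drives Alas1 in liver, read 11.42, 11.24 and 11.42 in the wild-type and 11.78, 11.67 and 11.53 in the transgenic hearts. Its groups did not overlap, with a difference of 0.30 ± 0.08 (SE; limma adjusted p = 0.160). Stat3 differed by 0.16 ± 0.06, the clock repressor Nr1d1, whose product binds heme, by 0.11 ± 0.10, and Nrf1, the factor whose site was searched in the promoters, by -0.07 ± 0.06 (SE).

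Targets of Nfe2l2, the factor that induces Hmox1 under oxidative stress, were measured by 24 of 25 listed genes, 13 higher and 11 lower with a median of 0.02, and 1 passed. Slc7a11, the cystine importer that feeds glutathione synthesis, read 4.90, 4.96 and 4.93 in the wild-type and 5.64, 5.71 and 5.85 in the transgenic hearts, and it rose by 0.80 ± 0.07 (SE; limma adjusted p = 0.00286). Its level was near the dim end of the array in both groups. Other targets lay on both sides of 0: Nqo1, a quinone reductase, differed by -0.19 ± 0.07, Ephx1, an epoxide hydrolase, by 0.25 ± 0.07, the exporter Abcc1 by -0.26 ± 0.06 and Gclm, a subunit of the glutathione-making ligase, by -0.04 ± 0.05 (SE). Of the 24 targets, Slc7a11 was the single one to pass, and the interval of Gclm, -0.17 to 0.08, gives it no sign.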

How the data were processed

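RNA of 6 hearts, 3 per genotype and 1 array each, was analysed from the deposited value table. The submitters' processing notes name RMA and Partek, without version or build. The authors deposited log2 values with 2 decimals, from 2.51 to 14.69. RMA gives the arrays like distributions, so a shift of all RNA per heart is not visible. The deposited arrays were close but not equal, with an upper quartile of 8.42 to 8.44 in the wild-type and 8.39 in the transgenic hearts. Exactly 1 gene symbol was named by 21789 of 28853 rows in the platform annotation; rows naming several (1621) or none (5443) were not tested. A gene was read by its row of highest mean. Transgenic minus wild type was fitted with limma 3.58.1 (R 4.3.3; lmFit, eBayes, no covariate) with Benjamini-Hochberg adjustment over these rows and a threshold of 0.05, and the code was tested on simulated data. The arrays correlated at 0.996 to 0.997 within and 0.993 to 0.996 between groups. Equal replicate numbers are not tied to a litter or day, so p-values measure the spread between these mice. The pathway genes, the 6 companion and 4 marker lists were chosen with earlier results of these data known. Text names the 9 genes, those of each companion list that passed, the 4 of smallest p, the first 4 markers of a list and the 5 most alike genes; Lgals3, Gp9, globin rows, neighbours and others given as contrasts were added after their values were seen. Alternatives were a replicate block, further quantile normalization, median centring, leaving out dim rows, another variance prior, array weights, single omissions, the mean of a gene's rows and, added later, all rows of the table. Sequences are from RefSeq, GRCm38.p6.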

Additional observations from a re-analysis of the deposited data

How the results depend on the processing

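The Alas2, Alas1, Hmox1 and Alas2 minus Alas1 differences kept their sign and stayed within 1 SD of the reported value under every alternative run on them; leaving out each heart in turn gave -0.82 to -0.70, 0.14 to 0.29, 0.26 to 0.43 and -1.07 to -0.91. The replicate block leaves every difference as it is, because the groups are balanced, and it changed no call among the companion genes other than that of Lcn2 (limma adjusted p = 0.0859). The number of rows that passed, 209, became 97 (60 higher, 37 lower) with the replicate block, 493 (184 higher, 309 lower) without the dimmest 40% of rows, 579 (240 higher, 339 lower) with a trended and robust prior, and 84 to 147 when single hearts were left out. The count of companion genes that passed, 5, became 8 without the dimmest rows, 11 with the trended and robust prior and 2 to 4 without single hearts, the lowest without wild-type replicate 2. Tent5c passed under median centring (limma adjusted p = 0.0361), without dim rows (0.0183), with the trended prior (0.0127), with array weights (0.0364) and as the mean of rows (0.0456), and Slc25a37 without dim rows (0.0302) and with the trended prior (0.0263). Ppargc1a passed with the trended prior (0.0496). Lcn2 missed the threshold also over all rows of the table (0.0754). Hccs and Slc7a11 passed under every alternative run on them; Slc7a11 is among the dim rows and has no value where these were left out. The cause of these changes was not tested. Same-numbered hearts correlated in their deviations at 0.16, -0.01 and -0.10, while wild-type replicate 3 with transgenic replicate 2 gave the highest value of all pairs, 0.23, so the numbers were not taken as pairs. These numbers are those of the titles; the descriptions number the wild-type hearts differently, and the block and these correlations rest on the titles alone. With 3 hearts a group and a median SE of 0.0731, differences near 0.1 in Alad, Uros, Urod, Cpox and Ppox are not resolved by these arrays. RMA compresses differences of dim rows, which bears on Slc7a11.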
